A study of Mus musculus with 21 samples.

Results

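The association of mRNAs with ribosomes was compared between the forebrain and the kidney of embryonic day 14.5 mice, and the transcripts whose association differed between the organs are described here. The members were the 12 libraries of the Sox2Cre crosses, chosen by genotype and organ, of 21 libraries in the series. All animals carried Sox2Cre+/-;Gt(ROSA)26Sor-mCherry-Rpl10a+/-. Sox2Cre recombines in the epiblast, so that all cells of the embryo proper can make the mCherry-tagged ribosomal protein L10a. The tagged protein is made from the ubiquitous promoter at the ROSA26 locus, and the line goes back to 1 targeted embryonic stem cell clone. The paper cautions that promoter activity may differ between cell types or states and so change the level of tagged protein. It adds that, if endogenous L10a varies, equal levels of tagged protein may not label equal shares of ribosomes. Whether such labelling differences enter the organ difference was not tested. The forebrain dissection held part of the diencephalon. From each lysate of pooled organs (2 brains or 4 kidneys) total RNA (transcriptome) and RNA bound to immunopurified mCherry-tagged ribosomes (translatome) were sequenced, and 3 tissue samples of each organ gave 3 libraries in each of the 4 groups. Because transcriptome and translatome of a sample came from the same lysate, the ratio of both was formed within each sample. The organ difference is this ratio in forebrain minus the same ratio in kidney, on the log2 scale.

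The share of an mRNA that is bound to ribosomes depends on how often its translation is initiated, on where the RNA resides and on features of the transcript. RNAs held in the nucleus are scarce among ribosomes, and the mRNAs of ribosomal proteins, which begin with a tract of pyrimidines (the 5′ terminal oligopyrimidine or TOP motif), are moved on and off ribosomes together when growth signals change. Long 3′ untranslated regions (UTRs) carry binding sites for regulatory proteins and microRNAs, and neural transcripts are known for long ones.

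Reads assigned to genes ranged from 43190754 to 56754015 in the forebrain transcriptomes, from 30546034 to 45773518 in the forebrain translatomes, from 31343319 to 51331105 in the kidney transcriptomes and from 21760652 to 24605124 in the kidney translatomes. All 10 forebrain markers and all 10 kidney markers were read in their own organ, with summed levels of 1953 to 2164 RPKM (reads scaled to transcript length and to the reads of the library) for the forebrain markers and 460.1 to 495.2 RPKM for the kidney markers. In the translatomes of kidney samples 1 and 2, which were sequenced in a lane shared with forebrain transcriptomes, 7 forebrain markers summed to 0.169% and 0.257% of their forebrain level, against 0.0168% to 0.0265% in the other 4 kidney libraries. If all transcripts were carried over at these shares, forebrain RNA would account for more than 10% of the mean kidney translatome level in 2 of the 3168 mRNAs described below. Red blood cell markers summed to 151.2 to 371.1 RPKM in the forebrain transcriptomes and 302.2 to 571 in the kidney transcriptomes, and to 82.97 to 175.8 and 81 to 154.4 RPKM in the respective translatomes. Their part in the results was not tested.

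Of 20108 transcripts with at least 1 read, 1467 (7.3%) had a higher and 1978 (9.84%) a lower ribosome association in forebrain than in kidney (edgeR's quasi-likelihood test with the tissue sample as a block, Benjamini-Hochberg adjusted p below 0.001). Among the 11339 mRNAs read at a mean of at least 1 RPKM in each organ, 1404 (12.4%) were higher and 1764 (15.6%) lower in forebrain. All further counts of mRNAs refer to these 11339. Their median organ difference was 0.01, and the median size of a called difference was 0.47 on the log2 scale. Only 114 of the 3168 called mRNAs differed by 2-fold or more. In bulk tissue, a change in the cells that make up an organ and a change of RNA on ribosomes per cell cannot be told apart, and the values are shares of each library, so that a change common to all mRNAs of an organ would not be seen.

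The organs largely shared their pattern. In forebrain 35.2% of the mRNAs were enriched and 33.9% depleted in the translatome, and in kidney 33.0% and 31.7%. Pearson's r of the changes in the organs was 0.84 and Spearman's rho 0.81, across 11339 genes of the same 12 libraries, which are not independent replicates. The changes spread more widely in forebrain (SD 0.66) than in kidney (SD 0.54), and the log2 ratios had SDs of 0.709, 0.619 and 0.669 in the 3 forebrain samples and of 0.548, 0.548 and 0.56 in the 3 kidney samples. Forebrain sample 1 had the widest ratios, and all 3 forebrain samples lay above the 3 kidney samples. Most called mRNAs therefore differed in the size of a shared change or in a change seen in 1 organ. Depletion in both organs, deeper in forebrain, was found for 595 mRNAs, and enrichment in both, larger in forebrain, for 381. A further 502 were depleted in forebrain and 416 enriched in forebrain without a called change in kidney. Conversely, 385 were enriched and 366 depleted in kidney without a called change in forebrain, and the shared change was the larger in kidney for 128 enriched and 127 depleted mRNAs. Opposite directions were called for 219 mRNAs, of which 86 were enriched in the forebrain translatome and depleted in the kidney translatome, and 133 the reverse. For 3162 of the 3168 called mRNAs the 3 ratios of one organ did not overlap those of the other, as for 60.84% of all 11339.

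**Figure D1:**
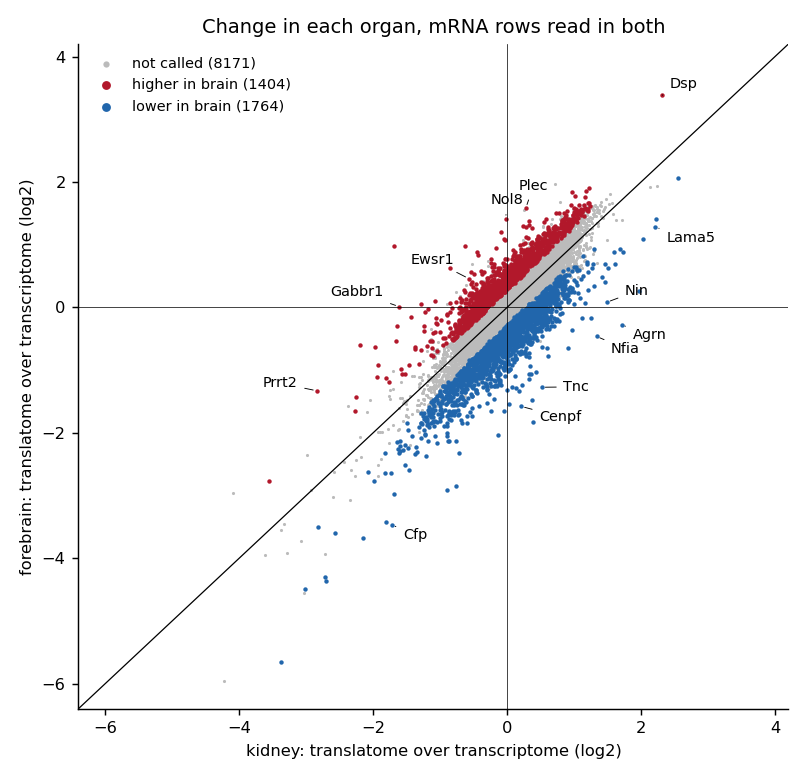
Log2 change from transcriptome to translatome in kidney (x axis) and forebrain (y axis) for 11339 mRNAs read in both organs. Red points (1404) were called higher and blue points (1764) lower in forebrain, grey points were not called, and the diagonal marks equal change. Agrn and Nfia lie to the right of and below the origin, and Ewsr1 to the left of and above it.

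Genes of RNA-binding proteins were among those with the largest opposite changes. Ewsr1 and Taf15 encode related proteins that bind nascent RNA and take part in transcription and splicing. Ewsr1 (chr11:5069689-5099266, GRCm38) stood at 110.1, 109 and 104 RPKM in the forebrain transcriptomes and at 153.3, 147.3 and 141.4 in the forebrain translatomes. In kidney it stood at 138.6, 137.2 and 129.8 RPKM in the transcriptomes and at 89.6, 97.45 and 86.17 in the translatomes. Every forebrain translatome was above, and every kidney translatome below, the transcriptomes of its organ. The organ difference of Ewsr1 was 1.03 ± 0.06 (log2, standard error, adjusted p = 7.8e-15), with a change of 0.46 ± 0.04 in forebrain and -0.57 ± 0.04 in kidney. Taf15 rose by 0.53 ± 0.06 in forebrain and fell by 0.50 in kidney (organ difference 1.03 ± 0.09).

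The DBHS proteins Sfpq, Nono and Pspc1, a family singled out after its values were seen, are building blocks of paraspeckles, nuclear bodies assembled on the long noncoding RNA Neat1. Sfpq was the most abundant, at 295.9 to 322.6 RPKM in the forebrain transcriptomes and 410.5 to 448.6 in the forebrain translatomes, and at 336.7 to 345.2 and 229.5 to 247.1 RPKM in the kidney transcriptomes and translatomes. Its organ difference was 0.92 ± 0.06 (adjusted p = 1e-13). Nono moved in the same way, up by 0.58 ± 0.04 in forebrain and down by 0.39 in kidney. Pspc1 stood at 47.63 to 47.96 RPKM in the forebrain transcriptomes and at 96.7 to 103 in the translatomes, an enrichment of 1.08 ± 0.05, whereas its kidney values of 43.95 to 46.42 and 41.91 to 47.98 RPKM overlapped. The broader list of SR and hnRNP splicing factors held 12 members called higher and 1 lower of 29, with a median of 0.20. Hnrnph3 (0.70 ± 0.09), Hnrnpc (0.59 ± 0.07) and Hnrnpk (0.45 ± 0.06) had the largest called positive differences, and Srsf12, at -0.95 ± 0.12, was the exception.

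Besides Ewsr1, Taf15 and Nono, the mRNAs leading the forebrain-enriched, kidney-depleted class included Inpp5f and Arhgap33. Inpp5f, a phosphoinositide phosphatase, stood at 66.56 to 73.2 RPKM in the forebrain transcriptomes, at 97.56 to 108.3 in the forebrain translatomes, at 15.04 to 16.66 in the kidney transcriptomes and at 10.42 to 11.23 in the kidney translatomes (organ difference 1.11 ± 0.06, adjusted p = 2.3e-15). Arhgap33, a GTPase-activating protein, changed by 0.40 ± 0.05 in forebrain and by -0.53 ± 0.05 in kidney.

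Another group of RNA-binding proteins moved the other way. Mbnl, Celf and Musashi proteins regulate alternative splicing, stability and translation, and as a group they were also singled out after their values were seen. Of 11 tested, 7 were read in both organs. Of these, 6 were called lower in forebrain (Mbnl1, Mbnl2, Celf2, Celf4, Msi1 and Msi2), and Celf1 missed the threshold at -0.28 ± 0.07 (adjusted p = 0.0013). Mbnl1 stood at 6.627, 7.029 and 7.629 RPKM in the forebrain transcriptomes and at 3.753, 4.848 and 4.303 in the forebrain translatomes. In kidney its transcriptomes gave 19.39, 18.07 and 19.41 RPKM and its translatomes 29.85, 28.39 and 27.9. The organ difference was -1.26 ± 0.08 (adjusted p = 9.7e-15), with non-overlapping ratios. Msi2 fell by 0.52 in forebrain and rose by 0.45 ± 0.04 in kidney, and Celf2 fell by 0.47 and rose by 0.41 ± 0.06.

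The nuclear factor I genes, transcription factors active in the developing forebrain and kidney, gave 4 of 4 members called lower in forebrain, again a grouping made after the values were seen. Nfia (chr4:97772734-98118874) stood at 31.67, 34.26 and 34.1 RPKM in the forebrain transcriptomes and at 21.13, 25.73 and 25.13 in the forebrain translatomes. In the kidney transcriptomes it stood at 6.971, 7.463 and 7.512 RPKM and in the kidney translatomes at 20.22, 16.43 and 19.11. Transcript levels were thus higher in forebrain, but the ratio to the transcriptome fell there by 0.46 and rose in kidney by 1.34 ± 0.06 (organ difference -1.80 ± 0.08, adjusted p = 4.2e-19). Forebrain carry-over at the measured shares would make up 0.271% of its kidney translatome level, and 1.845% of that of Nfix. Nfib differed by -0.97 ± 0.07, Nfix by -0.94 ± 0.09 and Nfic by -0.51 ± 0.08.

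**Figure D2:**
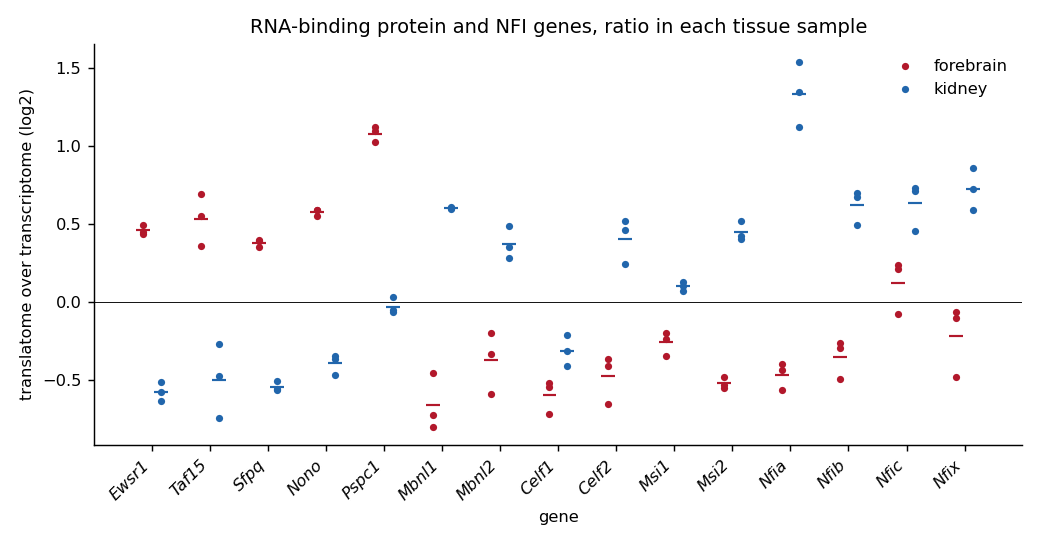
Log2 ratio of translatome to transcriptome (y axis) in each of 3 forebrain (red) and 3 kidney (blue) samples for Ewsr1, Taf15 and genes of the DBHS, MBNL, CELF, Musashi and NFI families (x axis), with bars at the means. The forebrain points lie above the kidney points for Ewsr1, Taf15 and the 3 DBHS genes and below them for the 10 others shown.

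Genes of the extracellular matrix were among the groups with members called lower in forebrain. Of 26 basement membrane and related matrix genes, 14 (53.8%) were called lower in forebrain and none higher, against 15.6% and 12.4% of all mRNAs. Their median was -0.33 (samples SD 0.12), against 0.01 over all mRNAs. Agrn encodes agrin, a heparan sulfate proteoglycan of basement membranes that also organises synapses. Agrn (chr4:156165290-156197488) stood at 136.2, 131 and 135.7 RPKM in the forebrain transcriptomes and at 109.4, 118.5 and 103.2 in the forebrain translatomes. In the kidney transcriptomes it stood at 102.5, 108.4 and 119.7 RPKM and in the kidney translatomes at 358.7, 354.5 and 366.3. Levels of the transcript were thus close in the organs, while only the kidney translatomes rose above them. Its organ difference of -1.99 ± 0.07 (adjusted p = 2.7e-21) joined a change of 1.71 ± 0.05 in kidney to one of -0.28 ± 0.05 in forebrain. Tnc (tenascin C) fell by 1.27 in forebrain and rose by 0.52 ± 0.06 in kidney. Other members were enriched in both organs, but less in forebrain. Lama5, the laminin alpha 5 chain, changed by 1.28 ± 0.06 in forebrain and by 2.21 ± 0.06 in kidney. Fras1, a protein of the epithelial basement membrane, stood at 2.459 to 2.799 and 3.653 to 4.481 RPKM in the forebrain transcriptomes and translatomes and at 21.14 to 22.11 and 58.35 to 65.83 RPKM in those of kidney (organ difference -0.865 ± 0.07). Hspg2 (perlecan), Nid2 (nidogen 2) and Fn1 (fibronectin) differed by -0.81, -0.85 and -0.72.

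Collagens were depleted more in forebrain (median -0.44, samples SD 0.06). Of 27, 14 (51.9%) were called lower and 1 (3.7%) higher, against 15.6% and 12.4% of all mRNAs. The basement membrane collagen Col4a1 stood at 61.28 to 71.12 RPKM in the forebrain transcriptomes and 26.79 to 34.35 in the translatomes, a change of -1.10 ± 0.05, and at 220.8 to 251.5 and 181 to 207.4 RPKM in kidney, a change of -0.26 ± 0.05. Col4a2, Col4a5 and Col4a6 differed by -0.75, -0.80 and -0.63, so that 4 type IV chains were called in the same direction. Col5a1, at 0.63, was the member called higher. Pxdn, the peroxidase that crosslinks type IV collagen, stood outside these lists and differed by -1.52 ± 0.07 (adjusted p = 2.2e-17). Meningeal and mesenchymal markers, which include collagens, summed to 111.7 to 128.5 RPKM in the forebrain and to 556 to 724.5 RPKM in the kidney libraries, and the part of this difference in cell makeup was not tested. With the lane as a term, a fit that rests on 1 sample of each organ, the basement membrane median was -0.15 and the collagen median -0.36.

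Genes of centrosome scaffolds formed a further group, assembled by family name after the leading genes had been seen. Of 33 members, 19 (57.6%) were called lower and 2 (6.1%) higher in forebrain, against 15.6% and 12.4% of all mRNAs (median -0.42). Their transcripts were long, with a median of 5532 bases. When mRNAs were put in 10 groups by length and the median of the length group was subtracted, their median was -0.22. Cep110 (centriolin) stood at 14.04 to 16.41 RPKM in the forebrain transcriptomes, at 8.771 to 10.42 in the forebrain translatomes, at 25.05 to 27.89 in the kidney transcriptomes and at 44.33 to 53.63 in the kidney translatomes. The difference was -1.56 ± 0.07 (adjusted p = 3.9e-19), with opposite directions in the organs. Nin (ninein, a microtubule anchor of the mother centriole) stood at 11.66 to 12.53 and 14.04 to 15.23 RPKM in forebrain and at 15.58 to 16.83 and 44.35 to 46.8 RPKM in kidney, and only its kidney change of 1.49 ± 0.05 was called. Akap9 was enriched in both organs (0.41 ± 0.05 and 1.46 ± 0.05). Numa1, of the spindle pole, fell by 1.27 in forebrain and changed by 0.07 ± 0.05 in kidney. Cenpf, a large kinetochore protein outside this family, stood at 14.37 to 16.61 and 4.786 to 5.589 RPKM in forebrain and at 23.96 to 27.22 and 26.16 to 33.91 RPKM in kidney (organ difference -1.79 ± 0.07, adjusted p = 7.5e-21). Of 26 genes of DNA replication and mitosis, Cenpf included, 3 (11.5%) were called higher and 5 (19.2%) lower (median 0.08). These shares were near those of all mRNAs. Mki67, the proliferation marker, had a positive difference of 0.75 ± 0.07 and Bub1, a spindle checkpoint kinase, a negative one of -0.61 ± 0.08.

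The largest called positive differences among mRNAs of at least 5 RPKM in each organ included those of Gabbr1, Prrt2, Nol8, Plec, Cacnb1, Inpp5f, Pspc1, Crym, Ewsr1, Taf15 and Serp2. Gabbr1, a subunit of the GABA-B receptor, stood at 86.19, 88.62 and 91.82 RPKM in the forebrain transcriptomes and at 85.29, 90.99 and 91.33 in the forebrain translatomes, where the groups overlapped. In kidney its transcriptomes gave 21.5, 19.67 and 17.74 RPKM and its translatomes 6.967, 6.846 and 5.47, so that the organ difference of 1.63 ± 0.07 (adjusted p = 3.3e-19) came with depletion in kidney. Cacnb1, a calcium channel beta subunit (1.18 ± 0.09), was likewise called in kidney and not in forebrain. Eno2, the neuronal enolase (1.36 ± 0.11), changed by -0.29 ± 0.06 in forebrain and by -1.65 ± 0.09 in kidney. Prrt2, a protein of synaptic vesicle release, was depleted in both organs, by -1.33 ± 0.06 and -2.84 ± 0.09. Nol8, a nucleolar protein, stood at 10.53 to 12.03 RPKM in the forebrain transcriptomes and at 27.2 to 33.36 in the translatomes, while its kidney values of 11.81 to 12 and 10.71 to 12.81 RPKM overlapped (organ difference 1.44 ± 0.07). Plec, the cytoskeletal linker plectin, rose by 1.59 ± 0.06 in forebrain and by 0.28 ± 0.06 in kidney. Crym, a thyroid hormone-binding protein, and Serp2 differed by 1.10 ± 0.09 and 1.01 ± 0.13. Serp2 was low in kidney, at 4.271 to 6.765 RPKM.

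At the other end stood Ncrna00085, Agrn, Plekha1, Nfia, Tnc, Cenpf, Cfp, Dmpk, Cep110, Pxdn, Snrnp70 and Nin. Plekha1, an adaptor that binds phosphoinositides, stood at 38.75 to 41.03 RPKM in the forebrain transcriptomes and at 13.99 to 14.9 in the translatomes, and at 30.72 to 31.48 and 38.43 to 42.4 RPKM in kidney (organ difference -1.85 ± 0.07). Snrnp70, the 70K protein of the U1 spliceosomal particle, stood at 271.4 to 301.6 and 123.3 to 141.6 RPKM in forebrain and at 266.7 to 290.9 and 340.3 to 393.5 RPKM in kidney (organ difference -1.42 ± 0.08). Its transcript level was nearly equal in the organs, and the translatomes lay on opposite sides of it. Ncrna00085, Cfp (properdin) and Dmpk (myotonic dystrophy protein kinase) were depleted in both organs, more deeply in forebrain, by -5.66 ± 0.16, -3.47 ± 0.09 and -3.42 ± 0.08 against -3.38 ± 0.13, -1.72 ± 0.10 and -1.80 ± 0.07. For Ncrna00085 the forebrain translatomes held few reads, with 0.1762 to 0.2581 RPKM. The 6 mRNAs leading the class depleted in forebrain and enriched in kidney were Nfia, Tnc, Cep110, Mbnl1, Mars and Bicd2. Mars, the methionyl-tRNA synthetase, changed by -0.63 ± 0.05 and 0.53 ± 0.05, and Bicd2, a dynein adaptor, by -0.45 ± 0.05 and 0.53 ± 0.05.

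**Figure D3:**
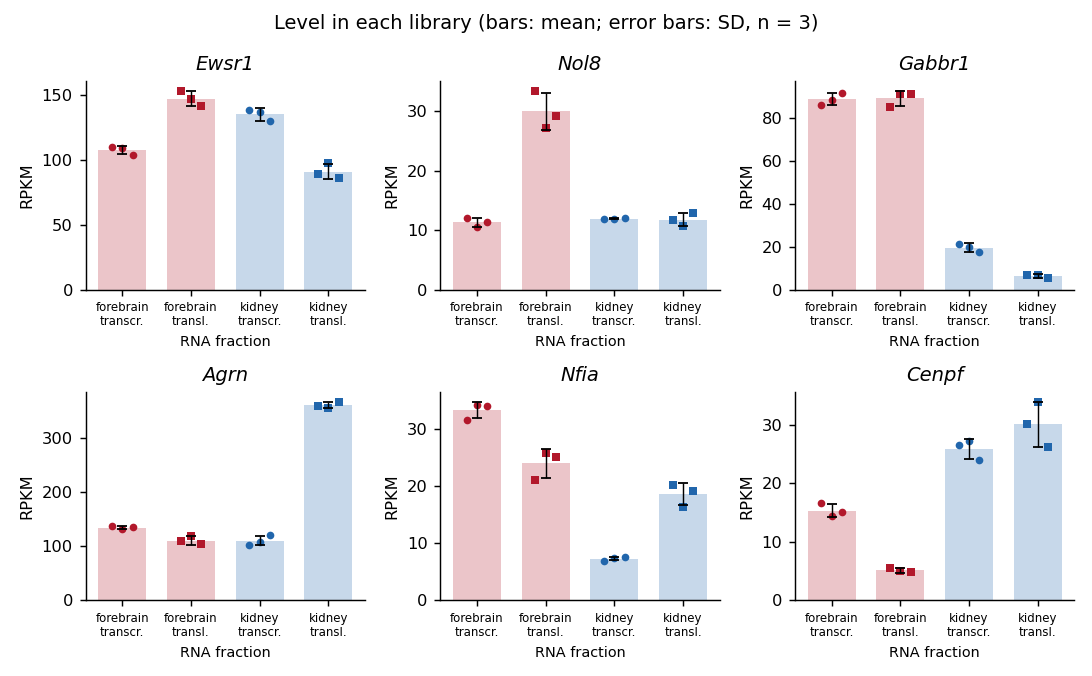
RPKM (y axis) in the 3 libraries of each of the 4 groups (x axis) for Ewsr1, Nol8, Gabbr1, Agrn, Nfia and Cenpf, with bars at the means and error bars of 1 SD. The kidney translatomes of Agrn, at 354.5 to 366.3, lie above its other 9 libraries, and the forebrain translatomes of Nol8, at 27.2 to 33.36, above its other 9.

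Several housekeeping machineries had members called higher in forebrain and few or none called lower. Of all mRNAs, 12.4% were called higher and 15.6% lower. Proteins of oxidative phosphorylation, which form the respiratory chain and the ATP synthase, gave 57 of 79 members called higher and 1 lower (Atp5s, at -0.54), with a median of 0.43 (samples SD 0.15). These mRNAs were enriched in both organs, by a median of 1.18 in forebrain and 0.73 in kidney. Ndufv3, a subunit of complex I, stood at 66.14 to 75.75 RPKM in the forebrain transcriptomes and at 205.9 to 222 in the translatomes, and at 45.37 to 49.49 and 84.92 to 99.06 RPKM in kidney (organ difference 0.81 ± 0.07, adjusted p = 9.9e-11). Sdhb, of complex II, was enriched in forebrain (0.78 ± 0.05) and not called in kidney (0.08 ± 0.05). Atp5b, the most abundant member, was not called in forebrain (0.06 ± 0.05) and fell by 0.49 in kidney. Mitochondrial ribosomal proteins gave 31 of 75 higher and none lower, with a median of 0.31 (samples SD 0.13).

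Proteasome subunits, which degrade ubiquitinated proteins, gave 26 of 39 higher (66.7%, against 12.4% of all mRNAs) and none lower. Their median of 0.46 (samples SD 0.12) joined 0.42 in forebrain to -0.03 in kidney. Psma7, of the core particle, stood at 150.2 to 171 RPKM in the forebrain transcriptomes and at 284.9 to 299.7 in the translatomes, and at 191.2 to 201 and 214 to 241.7 RPKM in kidney (organ difference 0.64 ± 0.07). Psmb5, a catalytic subunit, and Psmc3, an ATPase of the cap, differed by 0.77 ± 0.10 and 0.69 ± 0.07. Glycolytic genes gave 10 of 19 higher and 1 lower, with a median of 0.34 (samples SD 0.04), and here the mRNAs were depleted in kidney (median -0.54) more than in forebrain (median -0.14). Aldoa (aldolase A), Tpi1 (triosephosphate isomerase) and Ldhb (lactate dehydrogenase B) differed by 0.54, 0.59 and 0.65. Pfkp, the platelet form of phosphofructokinase, went against its list. It stood at 15.12 to 17.34 RPKM in the forebrain transcriptomes and at 1.893 to 2.409 in the translatomes, and at 4.364 to 5.387 and 2.348 to 3.543 RPKM in kidney (organ difference -2.09 ± 0.12, adjusted p = 2e-15). The 2 other phosphofructokinase genes, Pfkl and Pfkm, were called in the other direction, at 0.32 and 0.38.

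**Figure D4:**
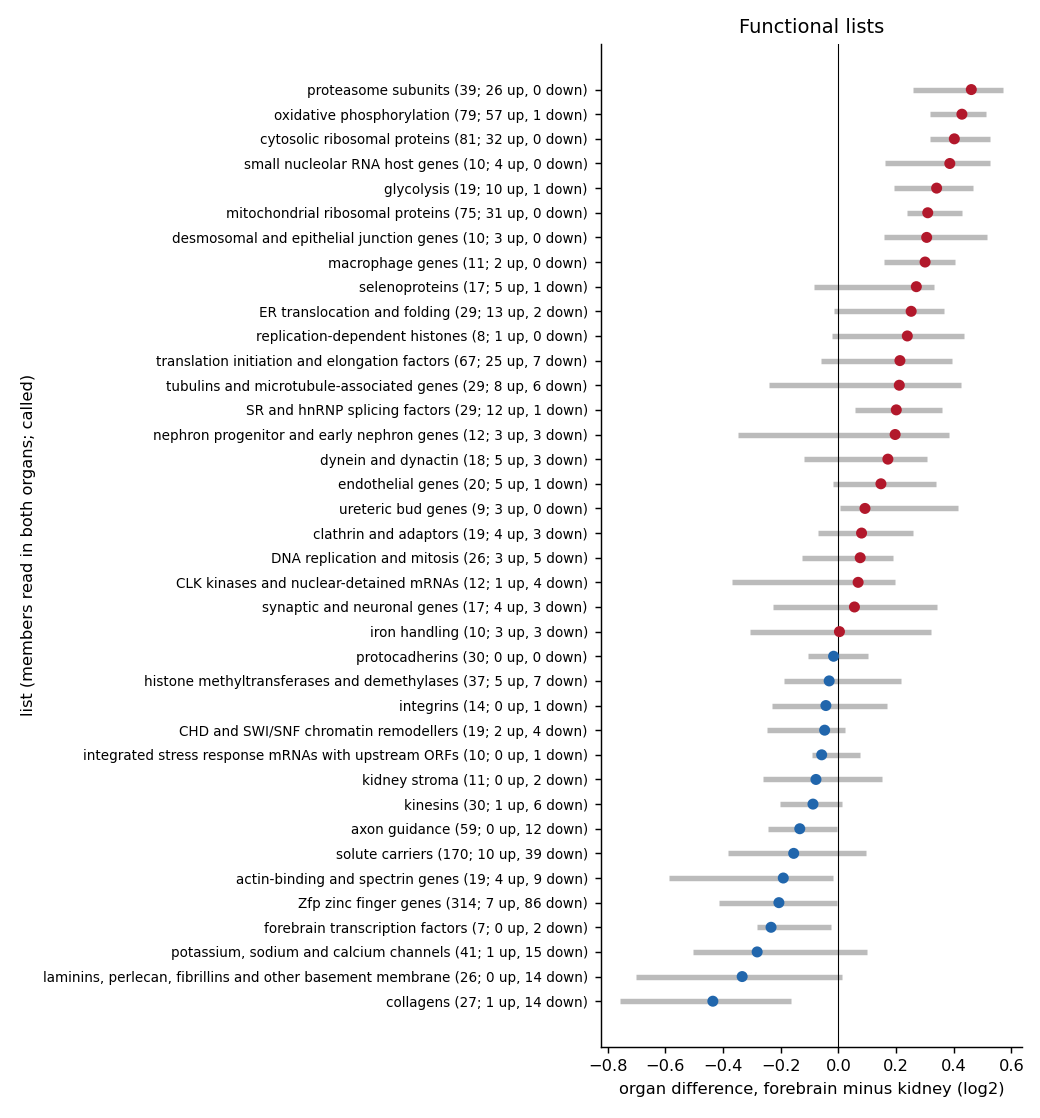
Median organ difference in log2 units (x axis, points) with the quartiles over members (grey bars) for functional lists of at least 7 members read in both organs, with member and call counts beside each name (y axis). Proteasome, respiratory chain and ribosomal protein lists lie at the right, between 0.40 and 0.46, and collagens at the left, at -0.44. Red points lie above 0 and blue points below. The list of long noncoding RNAs, at -1.14, and the groups formed after values were seen are not drawn.

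Cytosolic ribosomal proteins gave 32 of 81 members called higher (39.5%, against 12.4% of all mRNAs) and none lower. Their median was 0.40 (samples SD 0.18), and 77 of 81 values were positive. Rpl8, the most abundant, stood at 677, 797.8 and 734.2 RPKM in the forebrain transcriptomes and at 1148, 1109 and 1178 in the forebrain translatomes. In kidney its transcriptomes gave 1213, 1310 and 1308 RPKM and its translatomes 1299, 1419 and 1454, so that the kidney groups overlapped and those of forebrain did not (organ difference 0.53 ± 0.07, adjusted p = 2.1e-07). Rpl7 differed by 0.60 ± 0.07 and Rps29 by 0.87 ± 0.20. Rpl10a, whose protein carries the tag, stood at 6.346 to 6.435 and 5.887 to 7.644 RPKM in forebrain and at 14.56 to 15.73 and 9.058 to 12.45 RPKM in kidney, and its difference of 0.51 ± 0.14 missed the threshold (adjusted p = 0.0041). Many ribosomal protein genes have near-identical processed copies that can take up their reads, so levels of single members are uncertain. The translation factors were mixed, with 25 called higher and 7 lower of 67 (median 0.21, and 0.10 with the length group's median subtracted). Eif4a2, an RNA helicase of initiation, and Eif4g1, the scaffold of the cap-binding complex, differed by 0.79 ± 0.07 and 0.66, and Eif5a2 by -0.80 ± 0.09. Eif2s3y was called lower, but it lies on the Y chromosome and stood under 0.1 RPKM in the libraries of forebrain sample 1 and kidney samples 1 and 2, so its value rests on the other samples.

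To see whether a pyrimidine tract at the annotated start went with the organ difference, starts of ribosomal protein transcripts were taken from RefSeq on GRCm38.p6. The first 5 called members by size of difference that had a start sequence are shown, from 10 bases before to 20 bases after the annotated start, with the matched tract in capitals where a C followed by 5 or more bases of C or T began between 5 bases before and 12 bases after the start.
Rps10, chr17:27635225-27635254, minus strand: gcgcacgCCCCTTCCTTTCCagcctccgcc
Rpl13, chr8:123102340-123102369, plus strand: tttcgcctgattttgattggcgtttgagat
Rps3, chr7:99483690-99483719, minus strand: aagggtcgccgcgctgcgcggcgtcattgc
Rpl7a, chr2:26910797-26910826, plus strand: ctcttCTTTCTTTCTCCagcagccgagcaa
Rps9, chr7:3704031-3704060, plus strand: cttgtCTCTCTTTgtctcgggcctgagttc
Rps10, Rpl7a and Rps9 showed such a tract at the annotated start and Rpl13 and Rps3 did not. Their differences of 0.59, 0.55, 0.55, 0.57 and 0.56 were what selected them. The tract was present in 28 of 59 ribosomal protein mRNAs with a start sequence (47.5%), against 15.5% of the 27025 genes in the table, 22.4% of translation factors, 15.9% of oxidative phosphorylation genes, 9.4% of proteasome subunits and 9.1% of mitochondrial ribosomal proteins. The median organ difference was 0.40 for the 28 ribosomal protein mRNAs with a tract and 0.40 for the 31 without. Among the other mRNAs, in the third with the shortest transcripts, it was 0.21 for 385 mRNAs with a tract and 0.19 for 2428 without. A match describes these letters at the annotated start, which can differ from the start used in these organs. Ribosomal protein mRNAs without a match can still begin with a tract, so the equal medians cannot show whether the tract matters.

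Several large gene families had more members called lower than higher in forebrain, as had all mRNAs, at 15.6% and 12.4%. Zinc finger genes of the Zfp series, mostly transcriptional regulators, gave 86 of 314 lower and 7 higher, with a median of -0.21 (samples SD 0.04). Zfp187 stood at 18.73 to 20.56 and 4.42 to 4.631 RPKM in forebrain and at 22.97 to 23.66 and 12.61 to 13.02 RPKM in kidney (organ difference -1.26 ± 0.08). Potassium, sodium and calcium channel genes gave 15 of 41 lower and 1 higher (Cacnb1), with a median of -0.28 (samples SD 0.12). Their median ratios in the samples overlapped, at -0.131, -0.122 and -0.066 in forebrain and 0.051, -0.149 and 0.042 in kidney. Kcnd1, a voltage-gated potassium channel, differed by -0.99 ± 0.20, and Cacna1a, the pore subunit of P/Q-type calcium channels, by -0.76. The channel median was -0.04 among members of at least 5 RPKM in each organ. Solute carriers gave 39 of 170 (22.9%) lower and 10 (5.9%) higher (median -0.16). Slc18a2, the vesicular monoamine transporter, stood at 16.36 to 16.85 and 4.322 to 5.07 RPKM in forebrain and at 1.909 to 2.132 and 2.259 to 3.129 RPKM in kidney (organ difference -2.22 ± 0.11, adjusted p = 6.8e-17). Axon guidance genes gave 12 of 59 lower and none higher (median -0.13), a share of 20.3% against 15.6% of all mRNAs, and with the median of the length group subtracted their median was 0.0247. Genes of protein translocation and folding in the endoplasmic reticulum went the other way, with 13 of 29 called higher and 2 lower (median 0.25), as did selenoproteins, with 5 higher and 1 lower of 17 (median 0.27). With the length group's median subtracted, these medians were 0.12 and 0.06. Actin-binding and spectrin genes gave 9 of 19 (47.4%) lower and 4 (21.1%) higher (median -0.19, samples SD 0.19). Their median ratios in the samples overlapped, at -0.724, -0.398 and -0.72 in forebrain and -0.526, -0.45 and -0.435 in kidney. With the length group's median subtracted, their median was -0.12. Kinesins gave 6 of 30 (20.0%) lower, near the share of all mRNAs, and 1 higher (median -0.09, and 0.0285 with the length group's median subtracted). The median ratios of the samples also overlapped between the organs for kinesin, axon guidance and endoplasmic reticulum genes. Lists named for the cells of an organ were mixed. Synaptic and neuronal genes gave 4 higher and 3 lower of 17, and nephron progenitor genes 3 and 3 of 12. Ureteric bud genes gave 3 and 0 of 9. Kidney stroma genes gave 0 and 2 of 11 (18.2% lower, near the share of all mRNAs). Protocadherins gave no call in 30, and no Hox gene was read in both organs. Tubb3 was called lower at -1.72 ± 0.25, but its kidney level was 0.373 to 3.221 RPKM against 1039 to 1311 in forebrain, carry-over at the measured shares would make up 89.9% of its kidney translatome level, and with the lane as a term the value was 0.65.

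Of 386 noncoding transcripts read in both organs, 16 (4.15%) were called higher and 43 (11.1%) lower in forebrain. Long noncoding RNAs gave 7 of 11 lower and none higher (median -1.14, samples SD 0.26). With the kidney changes scaled to the wider spread of the forebrain changes, their median was -0.44. In forebrain 8 of the 11 were depleted in the translatome and 1 enriched (median -3.37), and in kidney 7 were depleted and 2 enriched (median -1.93). Meg3, an imprinted RNA of the Dlk1-Dio3 locus (chr12:109541001-109571726), stood at 271.1, 255.4 and 274.4 RPKM in the forebrain transcriptomes and at 2.445, 2.891 and 2.745 in the forebrain translatomes. In kidney it stood at 63.29, 45.57 and 47.62 RPKM in the transcriptomes and at 4.169, 3.559 and 4.073 in the translatomes. The translatomes of the organs were thus close, while the transcriptomes differed by a wide margin, and the organ difference was -2.92 ± 0.09 (adjusted p = 1.2e-23). Carry-over at the measured shares would make up 10.2% of the kidney translatome level of Meg3, and the difference between forebrain sample 1 and kidney sample 3, each with both fractions in 1 lane, was -3.13. Its neighbour Rian, from the same locus, differed by -1.89 ± 0.10. Malat1 and Neat1, nuclear RNAs of speckles and paraspeckles, fell by 5.06 and 4.30 in forebrain and changed by -3.79 ± 0.08 and -3.10 ± 0.10 in kidney. A930013F10Rik had the largest difference, -3.52 ± 0.47, on as few as 2 reads in a library, and D7Ertd715e and Tmem181c-ps differed by -1.46 ± 0.17 and -1.43 ± 0.12. The host genes of small nucleolar RNAs, which carry these RNAs in their introns and whose spliced transcripts are bound by ribosomes, gave 4 of 10 higher and none lower, with Gas5 at 0.68 ± 0.07, Snhg3 at 0.64 ± 0.12 and Snhg8 at 0.53 ± 0.10. Rn45s, the ribosomal RNA precursor, had the highest positive value of the noncoding transcripts, 1.74 ± 0.21, but its reads come from a multicopy gene and varied from 323.3 to 952.3 RPKM among kidney transcriptomes. The other leading noncoding transcripts were Gm1976 (1.27 ± 0.26), Gm20748 (1.05 ± 0.21), Rps4y2 (0.87 ± 0.09) and 1500016L03Rik (0.79 ± 0.14). The ratios of Gm1976 overlapped between the organs.

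The organ difference followed transcript length. In 10 groups of mRNAs of rising length, the median difference went from 0.30 at a median length of 869 bases to -0.24 at 7567.7 bases. In the shortest group 28.4% were called higher and 0.883% lower, and in the longest 4.06% higher and 41.8% lower. Short mRNAs were enriched and long ones depleted in both organs, with medians from 0.89 to -0.44 in forebrain and from 0.62 to -0.21 in kidney. The step from shortest to longest group was 1.552, 1.095 and 1.33 in the 3 forebrain samples and 0.834, 0.858 and 0.812 in the 3 kidney samples. After the median of its length group was subtracted, the median difference of oxidative phosphorylation genes was 0.17, of ribosomal proteins 0.13, of mitochondrial ribosomal proteins 0.10, of proteasome subunits 0.26 and of glycolytic genes 0.33. That of collagens was -0.33, of basement membrane genes -0.12 and of long noncoding RNAs -1.03.

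The parts of the transcript differed in how they went with the organs. Coding length, taken from GENCODE for 11275 of the mRNAs, went with the ratio in both organs, from 0.90 to -0.50 in forebrain and from 0.73 to -0.38 in kidney between groups with medians of 405 and 4617 bases. The ratio also fell with 3′ UTR length in forebrain. Between groups with median 3′ UTRs of 105 and 4494 bases the forebrain median went from 0.14 to -0.20, whereas the kidney median was -0.03 and -0.01. The difference between the shortest and the longest 3′ UTR group was 0.505, 0.209 and 0.274 in the 3 forebrain samples and -0.004, 0.026 and -0.092 in the 3 kidney samples, which did not overlap. The share called lower in forebrain was 8.16% in the first and 33% in the last group. Within groups of similar coding length the organ difference was again lower at long 3′ UTRs, but the organs contributed differently. In the third of mRNAs with the shortest coding regions the median organ difference was 0.28 for the third with the shortest 3′ UTRs and -0.10 for the third with the longest. The respective values were 0.14 and -0.13 at middle coding lengths and -0.05 and -0.19 in the longest. In the longest coding group neither organ fell, since the forebrain median was -0.40 for short and -0.35 for long 3′ UTRs and the kidney median -0.42 and -0.22. In the shortest coding group both fell, from 0.74 to 0.24 in forebrain and from 0.46 to 0.33 in kidney, and in the middle group forebrain went from 0.02 to -0.10 and kidney from -0.14 to 0.0021. Nfia, Nfib and Celf2, all lower in forebrain, had 3′ UTRs of 7639, 6512 and 7122 bases, whereas those of Agrn and Cep110, also lower, had 721 and 44 bases. The 5′ UTR went with a smaller difference, from 0.05 in the shortest to -0.05 in the longest group.

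Base composition moved with the same measure. mRNAs of the lowest GC group (median 40.4%) had a median organ difference of -0.28 and those of the highest (60.1%) of 0.11, and of the mRNAs in the third with the longest 3′ UTRs 1930 lay in the third of lowest and 572 in the third of highest GC content. Within the third of lowest GC the median was 0.04 for short and -0.24 for long 3′ UTRs, and within the third of highest GC 0.17 and -0.03. Annotated lengths can miss the ends used in these organs. Among mRNAs whose annotated length lay within 10% of the length used for RPKM (71.3%), the step from shortest to longest 3′ UTR group in the organ difference was 0.44, against 0.37 for all.

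**Figure D5:**
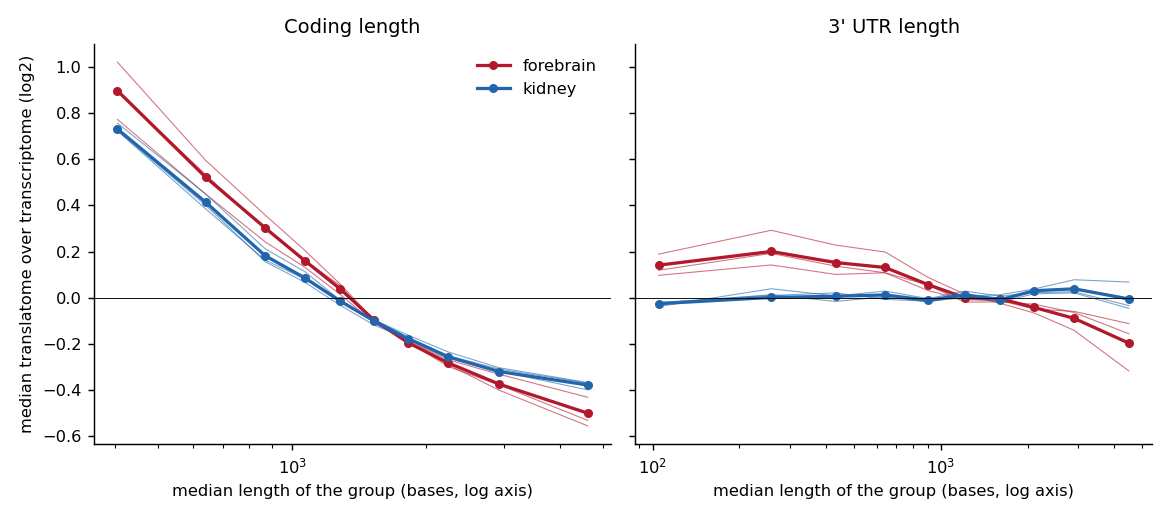
Median log2 ratio of translatome to transcriptome (y axis) in 10 groups of mRNAs by coding length (left) and 3′ UTR length (right), with group medians on a log axis, for forebrain (red) and kidney (blue). Thick lines are fitted changes and thin lines the 3 samples. With coding length both organs fall, and with 3′ UTR length forebrain falls from 0.14 to -0.20 while kidney stays between -0.03 and 0.04.

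The lanes of the sequencing runs were not balanced over the groups. In forebrain sample 1 and in kidney sample 3 both fractions shared a lane. The difference between these samples had the sign of the fitted one for 3165 of the 3168 called mRNAs. Both samples entered the fit that selected these mRNAs, so this agreement cannot test the part of the lanes. In the other samples the fractions lay in different lanes. With the lane as a term, the organ difference therefore rests on forebrain sample 1 and kidney sample 3 alone. Only its size is given for that fit, and no calls.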

How the data were processed

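Total RNA and RNA bound to mCherry-tagged ribosomes were sequenced from 6 tissue samples. The authors aligned the reads to the mouse genome (GRCm38, mm10) with RUM and deposited, for each library, RPKM values and raw read counts per RefSeq transcript of 23827 transcripts, made with a gene model table from UCSC. Reads of near-identical copies and of overlapping genes cannot be told apart in these counts. Lanes were taken from the sample table of the study.

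The deposited counts of the 12 libraries were tested with edgeR 4.0.16 (R 4.3.3; TMM factors, at least 1 count over the 12 libraries, quasi-likelihood test), with the tissue sample as a block and a translatome term for each organ. The organ difference was the contrast of these terms, with Benjamini-Hochberg adjustment over 20108 transcripts and a threshold of 0.001. The deposited RPKM values gave the levels, the minimum of 1 RPKM in each organ and no test. Ratios within a sample used 0.5 added counts. The SD given as "samples SD" is the root of the summed variances of the list's median ratio over the 3 samples of each organ. Transcripts with an mRNA accession counted as mRNAs.

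Same-numbered transcriptome and translatome libraries came from the same lysate, by the study's sample table. Their deviations from the group means correlated across genes with r of 0.532 to 0.789, against -0.557 to 0.055 for different numbers. Numbers were not paired across organs, and samples are pools of organs, so that p-values refer to the spread of within-sample ratios between pools. The test did not take this spread from each gene alone, but drew it towards a spread shared among genes. The shared part had a median weight of 29.97 degrees of freedom, more than the 12 libraries can give any gene. Very small p-values therefore rest largely on the shared spread and do not measure a gene's own spread between pools.

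Picked by rule were Rpl10a and the 12 mRNAs each way with the largest called difference. These mRNAs had 5 RPKM or more in each organ and no overlap of ratios. Further picks were the 6 each way of opposite direction with the largest smaller change and the 5 noncoding transcripts each way. From each functional list came up to 4 called members and the most abundant member. Not all of these genes are named in the text. 1 gene selected by this rule is not reported here. Other genes named were chosen after their values were seen. The members and lists were chosen with earlier results of these data known. Coding and UTR lengths came from the GENCODE annotation of GRCm38, and start sequences from RefSeq. Alternatives were DESeq2 1.42.0, other scalings, filters and thresholds, no block, the lane as a term, and each tissue sample left out. The fit was also run on simulated counts with a known organ difference in some transcripts. These counts had 1 spread for all transcripts and no effects of tissue sample or lane. The run therefore cannot show how the test behaves under the spread and lanes of these data. The other 9 libraries of the series, from other Cre lines, were not used here.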

Additional observations from a re-analysis of the deposited data

Results flagged for a closer look

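The organ difference, a test of whether the translatome change differs between forebrain and kidney, was called for 1404 mRNAs higher and 1764 mRNAs lower in forebrain. Among the mRNAs with opposite changes in the organs, those of at least 5 RPKM in each organ whose smaller change was largest included, higher in forebrain, Inpp5f at 1.11, Ewsr1 at 1.03, Taf15 at 1.03, Nono at 0.97 and Arhgap33 at 0.93 (log2). The corresponding ones lower in forebrain were Nfia at -1.80, Tnc at -1.79, Cep110 at -1.56, Mbnl1 at -1.26, Mars at -1.15 and Bicd2 at -0.97. Other named genes, such as Agrn and Hnrnpc, also had opposite changes, with a smaller change in one organ. For each of the 11 genes with values here the 3 ratios of one organ did not overlap those of the other. The same held for 99.81% of all called mRNAs, from which these genes were picked, and for 60.84% of all mRNAs read in both organs.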

How the results depend on the processing

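Counts moved by over 1.5 times under 4 kinds of change. Without the block for the pairing of libraries by tissue sample, 472 transcripts were higher and 829 lower in forebrain, of them 459 and 760 mRNAs, and opposite changes were 29 and 54. At an adjusted p of 0.05 the counts were 3172 and 3535, 2896 and 2973, and 288 and 341. With at least 1.5-fold they were 309 and 844, 252 and 641, and 52 mRNAs enriched in forebrain and depleted in kidney. Leaving out 1 sample gave 907 to 1890 higher and 1514 to 2242 lower transcripts, 864 to 1816 and 1366 to 1995 mRNAs, and 47 to 116 and 90 to 179 opposite ones. Without kidney sample 1 or 2 the mRNAs higher in forebrain were 911 and 864.

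With the lane as a term, the step from short to long 3′ UTRs was 0.62, and the list medians were 0.58 for proteasome subunits, -0.36 for collagens, -0.15 for basement membrane genes and 0.43 for glycolysis. In the sample pairs that share a lane these values were 0.616, 0.58, -0.36, -0.15 and 0.43, and the step with transcript length was 0.81. Eif2s3y turned to 0.92 under both, but this sets forebrain sample 1, where it stood under 0.1 RPKM, against kidney sample 3. It is therefore not a measured reversal. Tubb3 turned to 0.65 and 0.63. With the length group's median subtracted, ribosomal proteins were at 0.13, mitochondrial ribosomal proteins at 0.10, oxidative phosphorylation at 0.17, proteasome subunits at 0.26, Zfp genes at -0.16, collagens at -0.33, basement membrane genes at -0.12, channels at -0.12, kinesins at 0.0285 and axon guidance at 0.0247. With GC removed in the same way, Zfp genes were at -0.14, collagens at -0.59 and glycolysis at 0.25. At 5 RPKM collagens were at -0.33, glycolysis at 0.38, channels at -0.0371 and nephron genes at -0.0243. With the kidney changes scaled to the spread of forebrain, an alternative chosen after seeing the data as were the GC and 3′ UTR ones, collagens were at -0.50, long noncoding RNAs at -0.44, glycolysis at 0.47 and synaptic genes at -0.0005. Leaving out 1 sample gave steps of 0.42 to 0.65 with length and 0.27 to 0.45 with 3′ UTRs, and medians of 0.34 to 0.51 for ribosomal proteins, 0.24 to 0.37 for mitochondrial ribosomal proteins, 0.36 to 0.49 for oxidative phosphorylation, 0.39 to 0.52 for proteasome subunits, -0.23 to -0.19 for Zfp genes, -0.49 to -0.40 for collagens, -0.42 to -0.28 for basement membrane genes, -1.14 to -0.86 for long noncoding RNAs, 0.27 to 0.38 for glycolysis and -0.34 to -0.20 for channels. Synaptic genes ranged from -0.0462, without kidney sample 3, to 0.0905, and were at 0.31 with the lane as a term and 0.30 in pairs that share a lane. The cause of these shifts was not tested.

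DESeq2 called 1079 higher and 1648 lower transcripts. These shifts were counted over 236 genes, those picked by the naming rule and the members of the groups formed later. Not all of them are named above, and some genes named above, such as Hspg2 and Col4a2, were not among them. Of the 236, 28 lost their call with DESeq2, 96 without the block and 76 with at least 1.5-fold. The values of 85 moved when the kidney changes were scaled to the spread of forebrain.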
